A study of Mus musculus with 38 samples.

Results

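A set of 7 genes of the tumour necrosis factor (TNF) family are described here in mouse B cells on the way to plasma cells: the ligands Tnf, Lta, Ltb, Tnfsf9, Tnfsf15 and Cd70, and the receptor Tnfrsf8. The files list them in capitals, as TNF, LTA, LTB, TNFSF9, TNFSF15, CD70 and TNFRSF8. They were taken by symbol from the RNA-seq files and are 7 of 21032 distinct gene symbols there. All 7 had a value in each of the 14 libraries. The set was selected on its RPKM values and differences across all 7 RNA groups, so the members' values below are a description and carry no p-value.

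TNF superfamily ligands are mostly trimeric proteins of the cell surface, some shed in soluble form, that signal through TNF receptor superfamily members on the same or neighbouring cells. The receptors recruit TRAF adaptors and ubiquitin enzymes, which switch on NF-kB and MAP kinase signalling, and some of them can trigger cell death. In B cells the family carries signals between activated B cells and T cells, and lymphotoxin from B cells maintains the architecture of lymphoid tissue. Blimp1, encoded by Prdm1, is the transcription factor that drives plasma cell differentiation and represses much of the B cell programme.

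All mice were C57BL/6 and all carried a Blimp1 allele marked with GFP. Blimp1-deficient pre-plasmablasts were Blimp1(GFP/fl) Cd23(Cre/+), with a Cre named for Cd23, a gene active in maturing B cells. They were sorted as CD138- GFP+ CD22 high cells. Activated B cells (CD138- GFP-), pre-plasmablasts (CD138- GFP+, the control of the Blimp1-deficient cells) and plasmablasts (CD138+ GFP+) were Blimp1(GFP/+) Cd23(Cre/+). These 4 groups were sorted after 4 days of stimulation with lipopolysaccharide (LPS), a bacterial product that activates B cells. Pre-plasmablasts of Blimp1(GFP/+) mice, without the Cre allele, were stimulated for 4 days in the presence of GSK343, which blocks the Polycomb enzyme Ezh2, or of DMSO as the vehicle, and sorted as CD138- GFP+ cells. Plasma cells were sorted directly from Blimp1(GFP/+) mice as CD28+ CD138+ GFP+ cells negative for lineage markers. Each of the 7 groups had 2 libraries, and nothing in the labels says whether these came from separate mice, so their spread may be technical. The control and the Blimp1-deficient pre-plasmablasts differ in genotype and in the CD22 gate together, and the effects of these cannot be told apart.

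Levels are RPKM (read counts scaled to transcript length and library size). The first 4 groups have values that the authors corrected for GC content, the inhibitor and plasma cell files do not, so levels are compared only within a type of file. The depth behind the GC-normalized values is unknown. Between 9188 and 10077 genes per library reached 1 RPKM. Prdm1 itself was lower in Blimp1-deficient than in control pre-plasmablasts, by a log2 difference of -1.02 ± 0.21 (SE, 2 libraries each, limma adjusted p = 0.0102). Transcripts of the GFP allele and of exons left in the floxed allele count towards this value, which therefore checks the genotype only in part. The 6 B cell markers summed to 4038 and 4272 RPKM in Blimp1-deficient pre-plasmablasts, against 2300 and 2460 RPKM in control pre-plasmablasts, and were above 0 in every library. Cd22 is among the 6, with means of 327.1 RPKM in Blimp1-deficient and 33.4 RPKM in control pre-plasmablasts. The Blimp1-deficient cells were sorted as CD22 high, so the sum is not independent of the gate.

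Some members are neighbours: in the reference gene order Ltb, Tnf and Lta follow each other on chromosome 17, and Tnfsf9 and Cd70 stand side by side elsewhere on that chromosome, with Tnfsf14 next. Tnfsf15 lies beside Tnfsf8 on chromosome 4, and Tnfrsf8 beside Tnfrsf1b on the same chromosome. Annotated non-coding genes overlap Lta, Ltb, Tnfsf9, Tnfsf15 and Cd70. Reads of such overlaps cannot be assigned, since the use of strand in the authors' counting is not given in the sources used here. RefSeq promoters (GRCm38.p6) were matched for 5 of the 7 members, all but Tnfsf9 and Cd70. The 250 bases before the start of 4 genes are shown, because Tnf and Lta had like levels across the groups while their neighbour Ltb did not, and because Ltb and Tnfrsf8 hold the sequence match described next. Tnf (chr17:35202008-35202257), Lta (chr17:35205352-35205601) and Tnfrsf8 (chr4:145315165-145315414) are on the minus strand and Ltb (chr17:35194257-35194506) on the plus strand, and each is written 5′ to 3′ along its gene's strand, with matches to the NF-kB consensus in capitals.
Tnf: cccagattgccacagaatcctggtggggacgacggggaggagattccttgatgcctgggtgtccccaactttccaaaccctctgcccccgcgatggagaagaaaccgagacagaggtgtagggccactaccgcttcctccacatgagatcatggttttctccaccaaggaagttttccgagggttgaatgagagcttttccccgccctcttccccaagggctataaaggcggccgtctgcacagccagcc
Lta: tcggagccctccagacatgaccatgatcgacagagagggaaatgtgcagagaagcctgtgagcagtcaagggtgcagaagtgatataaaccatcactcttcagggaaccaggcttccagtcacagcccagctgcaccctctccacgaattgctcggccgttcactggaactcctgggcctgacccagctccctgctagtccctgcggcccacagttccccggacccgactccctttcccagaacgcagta
Ltb: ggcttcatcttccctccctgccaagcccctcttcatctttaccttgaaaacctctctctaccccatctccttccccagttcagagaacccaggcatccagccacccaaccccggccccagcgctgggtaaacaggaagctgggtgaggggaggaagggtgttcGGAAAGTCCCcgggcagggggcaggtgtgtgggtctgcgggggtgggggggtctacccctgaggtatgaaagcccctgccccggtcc
Tnfrsf8: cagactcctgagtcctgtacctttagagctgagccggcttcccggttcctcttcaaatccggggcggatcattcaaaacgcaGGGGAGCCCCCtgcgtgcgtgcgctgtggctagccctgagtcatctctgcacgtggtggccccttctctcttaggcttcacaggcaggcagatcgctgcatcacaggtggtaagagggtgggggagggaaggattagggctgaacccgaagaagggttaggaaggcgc

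The search covered 250 bases before to 50 bases after the start on both strands. The NF-kB consensus had 1 match in the Ltb promoter and 2 overlapping matches in the Tnfrsf8 promoter, and none in those of Tnf, Lta and Tnfsf15; 8.46% of 32851 promoters of the table hold such a match. The core of the Blimp1 site, GTGAAAG, had no match in any of the 5 promoters, against 4.24% of all promoters. The core of the PU.1 site, GAGGAAGT, also had none, against 3.2% of all promoters. These say only which letters the windows hold.

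Tnfsf15, Tnfsf9, Cd70 and Tnfrsf8 had higher levels in Blimp1-deficient pre-plasmablasts than in any other library of the GC-normalized files. Tnf and Lta were also higher in Blimp1-deficient than in control pre-plasmablasts, but below activated B cells. Ltb was lower in Blimp1-deficient pre-plasmablasts than in both.

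Tnfsf15, also called TL1A, is the ligand of the death domain receptor Tnfrsf25 and a costimulator of T cells. It was at 21.6 and 21.7 RPKM in Blimp1-deficient pre-plasmablasts, against 0.403 and 0.525 RPKM in control pre-plasmablasts. In activated B cells it had 0.945 and 1.42 RPKM, and plasmablasts 0.242 and 0.321 RPKM. The Blimp1-deficient libraries stood far above all 6 others, which among themselves were ordered activated B cells, pre-plasmablasts and plasmablasts, high to low, without overlap. The log2 difference of RPKM + 1 between Blimp1-deficient and control pre-plasmablasts was 3.95 ± 0.13 (SE), and that between Blimp1-deficient pre-plasmablasts and activated B cells 3.38 ± 0.13. Such differences understate the change of genes near or below 1 RPKM.

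Tnfsf9, or 4-1BB ligand, costimulates T cells through Tnfrsf9. Its levels were 30.6 and 31.5 RPKM in Blimp1-deficient pre-plasmablasts, against 3.40 and 3.94 RPKM in control pre-plasmablasts. Activated B cells had 4.07 and 6.55 RPKM, and plasmablasts had 2.38 and 2.80 RPKM. The Blimp1-deficient libraries again did not overlap any other group, whereas the lowest activated B cell library was only just above the highest pre-plasmablast library. The log2 difference was 2.78 ± 0.19 (SE) against control pre-plasmablasts and 2.37 ± 0.19 against activated B cells.

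Cd70, the ligand of Cd27 and a further costimulator of T cells, was at 19.3 and 14.6 RPKM in Blimp1-deficient pre-plasmablasts, against 3.29 and 1.11 RPKM in control pre-plasmablasts. Activated B cells had 2.18 and 1.20 RPKM and plasmablasts 0.648 and 0.624 RPKM. The control pre-plasmablasts and activated B cells overlapped, so their order is not resolved. Against control pre-plasmablasts the log2 difference was 2.56 ± 0.35 (SE), and against activated B cells 2.75 ± 0.35.

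Tnfrsf8, or CD30, is a receptor of activated lymphocytes whose ligand is Tnfsf8. It had 15.9 and 14.4 RPKM in Blimp1-deficient pre-plasmablasts, against 6.57 and 4.91 RPKM in control pre-plasmablasts. Plasmablasts had 4.04 and 3.91 RPKM and activated B cells 1.15 and 0.507 RPKM. Unlike the 3 ligands above, the receptor was lowest in activated B cells, and no 2 neighbouring groups in this order overlapped. The log2 difference was 1.27 ± 0.20 (SE) against control pre-plasmablasts and 3.16 ± 0.20 against activated B cells.

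Tnf, the inflammatory cytokine that binds Tnfrsf1a and Tnfrsf1b, was at 5.13 and 5.06 RPKM in Blimp1-deficient pre-plasmablasts, against 0.764 and 0.562 RPKM in control pre-plasmablasts. Its level in activated B cells was 22.5 and 15.0 RPKM. Plasmablasts had 0.531 and 1.05 RPKM and overlapped the control pre-plasmablasts. Blimp1-deficient pre-plasmablasts therefore lay between activated B cells and the other 2 groups, with log2 differences of 1.88 ± 0.22 (SE) against control pre-plasmablasts and -1.67 ± 0.22 against activated B cells.

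Lta, which encodes lymphotoxin alpha, the soluble homotrimer that shares the TNF receptors, followed the same order. It had 3.45 and 3.41 RPKM in Blimp1-deficient pre-plasmablasts, against 0.247 and 0.361 RPKM in control pre-plasmablasts. Activated B cells had 11.3 and 9.92 RPKM and plasmablasts 0.367 and 0.845 RPKM. The lowest plasmablast library was next to the highest pre-plasmablast library. The log2 difference was 1.77 ± 0.16 (SE) against control pre-plasmablasts and -1.39 ± 0.16 against activated B cells.

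Ltb anchors lymphotoxin alpha at the membrane as a heterotrimer that binds the receptor Ltbr. It was the most abundant member per length in every GC-normalized library, at 50.4 and 64.8 RPKM in Blimp1-deficient pre-plasmablasts, against 91.1 and 128.2 RPKM in control pre-plasmablasts. The levels in activated B cells were 142.8 and 168.4 RPKM and plasmablasts 9.48 and 16.5 RPKM. The groups did not overlap, but the highest control pre-plasmablast library and the lowest activated B cell library were close. The log2 difference was -0.91 ± 0.28 (SE) against control pre-plasmablasts and -1.42 ± 0.28 against activated B cells. Its limma calls in both contrasts depended on single libraries, and Ltb was chosen with these contrasts known, so nothing is read from them. Without 1 library the log2 difference of Ltb ran over -1.15 to -0.66 against control pre-plasmablasts and -1.60 to -1.25 against activated B cells.

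**Figure D1:**
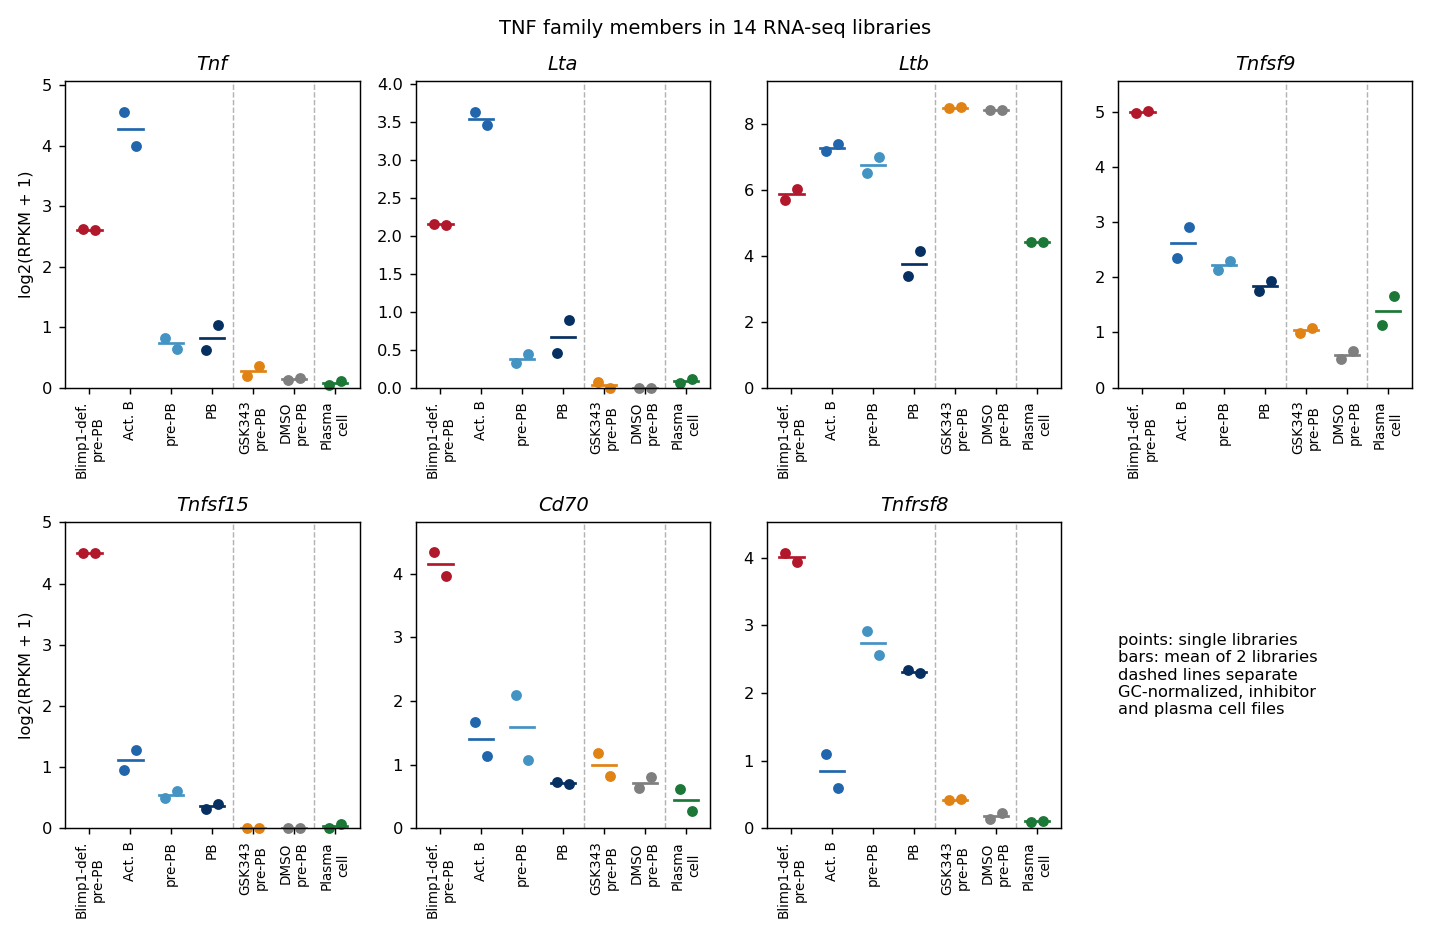
Levels of the 7 members in the 14 RNA-seq libraries on a log2(RPKM + 1) axis, with points for single libraries and bars for the mean of 2 libraries; dashed lines separate files that were normalized separately (Act. B, activated B cells; pre-PB, pre-plasmablasts; PB, plasmablasts). Tnfsf9, Tnfsf15, Cd70 and Tnfrsf8 stand highest in Blimp1-deficient pre-plasmablasts, Tnf and Lta in activated B cells.

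In the limma fit over all genes, 6 members were called higher and 1 lower in Blimp1-deficient than in control pre-plasmablasts, beside 40.4% of the 10473 genes tested (24.4% higher, 16.1% lower). Against activated B cells, 4 were called higher and 3 lower, beside 18% of the genes tested (10.4% higher, 7.6% lower). The members were chosen with these contrasts known, so nothing is read from these counts. All 7 passed the filter of 1 RPKM in 2 libraries, Tnfsf15 only through the Blimp1-deficient ones. The median log2 difference of the 7 was 1.88 against control pre-plasmablasts, where the median of all genes was 0.12, and 2.37 against activated B cells, where it was 0.00. Both comparisons share the Blimp1-deficient libraries. Scaling the libraries by median-of-ratios took the median of all genes against control pre-plasmablasts to 0.00, and the share of higher among all called genes to 47.6%, from 60.3% as deposited; no member changed direction there. In bulk RNA, fewer cells of a type and less RNA per cell cannot be told apart.

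Summed markers of other cells were also higher in Blimp1-deficient than in control pre-plasmablasts. Of 11 myeloid markers 4 are listed in the GC-normalized files, and they summed to 39.5 and 47.8 RPKM in Blimp1-deficient pre-plasmablasts, against 12.3 and 17.3 RPKM in control pre-plasmablasts, 32.6 and 26.6 RPKM in activated B cells and 4.53 and 6.85 RPKM in plasmablasts. Of 10 T cell markers 4 are listed, Cd8b1 passing the filter only through the Blimp1-deficient libraries. They summed to 13.7 and 15.2 RPKM in Blimp1-deficient pre-plasmablasts, against 6.59 and 9.97 RPKM in control pre-plasmablasts and 11.3 and 12.8 RPKM in activated B cells. None of these listed markers was at 0. The 6 plasma cell markers summed to 421.5 and 530.6 RPKM in Blimp1-deficient pre-plasmablasts, against 3539 and 5465 RPKM in control pre-plasmablasts. The 4 listed of 10 natural killer and dendritic cell markers summed to 37.7 and 31.0 RPKM in Blimp1-deficient pre-plasmablasts, against 25.6 and 21.6 RPKM in control pre-plasmablasts. Activated B cells had more, 59.3 and 51.4 RPKM. Limma called 3 of 4 tested myeloid, 2 of 3 T cell and 1 of 2 natural killer and dendritic cell markers higher and none lower, beside 24.4% of all genes higher. Fcer1g and Cd247 were not higher, with means of 9.87 and 4.21 RPKM in Blimp1-deficient and 10.6 and 5.29 RPKM in control pre-plasmablasts. The defining markers Cd3e, Cd4, Cd8a, Lyz2, Csf1r and Cd14 have no entry in these files. The part of other cells in the members' levels was not tested.

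**Figure D2:**
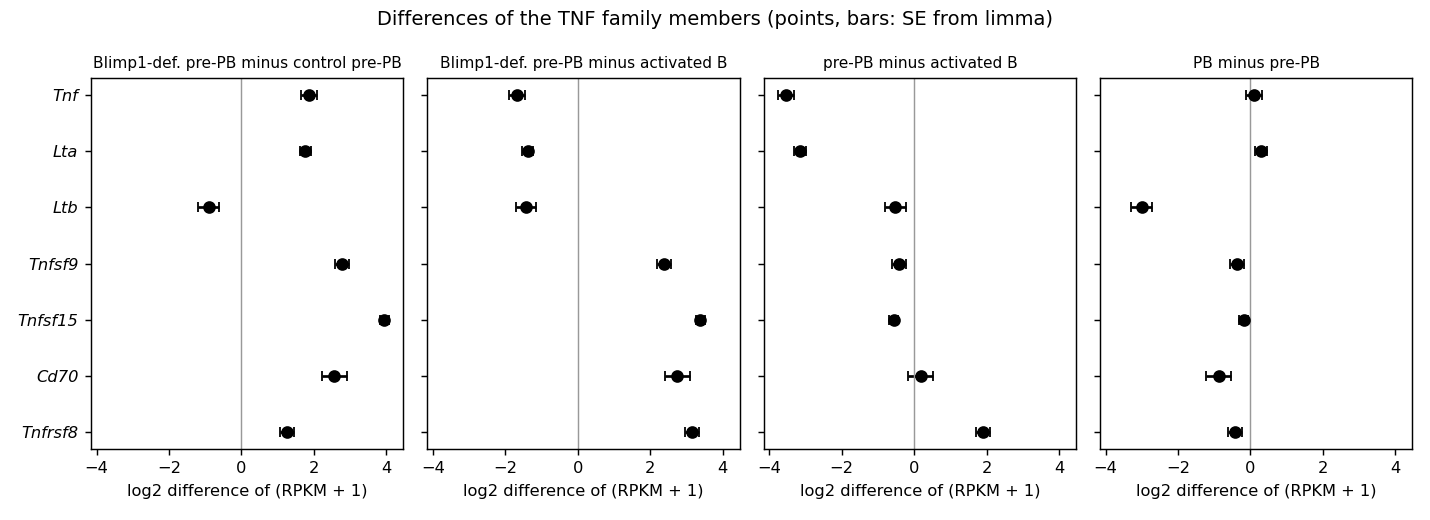
Log2 differences of RPKM + 1 for the 7 members in 4 comparisons of the LPS cultures, points with SE bars from the limma fit, positive where the group named first is higher. Against control pre-plasmablasts the points of the Blimp1-deficient cells lie at 1.27 or above except for Ltb at -0.91.

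Across the stages of the control cultures the members split in their course. Tnf and Lta were lower in pre-plasmablasts than in activated B cells, Ltb was lower mainly in plasmablasts, and Tnfrsf8 was higher in both later stages. In pre-plasmablasts against activated B cells the log2 difference was -3.55 ± 0.22 (SE) for Tnf, -3.15 ± 0.16 for Lta and 1.90 ± 0.20 for Tnfrsf8. The other 4 members lay between -0.57 for Tnfsf15 and 0.19 for Cd70, and the sign of Cd70 changed with the library left out, between -0.32 and 0.70.

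In plasmablasts against pre-plasmablasts the log2 difference of Ltb was -3.01 ± 0.28 (SE), and the other 6 members lay between -0.88 for Cd70 and 0.29 for Lta. Tnf and Lta were thus at their low level in pre-plasmablasts, and Ltb only in plasmablasts. All these cells were sorted after the same 4 days of LPS, so no order in time was measured. In plasmablasts against activated B cells Ltb was at -3.53, Tnf at -3.45 and Lta at -2.87, the 3 ligands Tnfsf9, Tnfsf15 and Cd70 lay between -0.79 and -0.69, and Tnfrsf8 was at 1.47.

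In pre-plasmablasts against activated B cells, 1 member was called higher and 3 lower, beside 48.2% of the genes tested (20.2% higher, 28% lower), and 1 higher and 5 lower with the library number series as a block, beside 69.6% then. In plasmablasts against pre-plasmablasts 1 was called lower and none higher, beside 2.34% (0.716% higher, 1.62% lower), and 3 lower with the block, beside 20.3% then. With only these 2 groups in the fit, or without pre-plasmablast library 2, no member was called; at an unadjusted p under 0.05, with 4 groups in the fit, 2 were lower. In plasmablasts against activated B cells 1 was called higher and 5 lower, beside 55.1% (21.3% higher, 33.9% lower), and 1 higher and 6 lower, Cd70 included, with the block, beside 75.4%, and with only these 2 groups in the fit. The call of Tnfsf15 in pre-plasmablasts against activated B cells was lost without activated B cell library 2 or pre-plasmablast library 1, and that of Tnfsf9 in plasmablasts against activated B cells without plasmablast library 1. The rule that chose the members spans these groups, so nothing is read from the counts.

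In pre-plasmablasts treated with GSK343, Ltb stood at 355.2 and 366.5 RPKM, against 342.1 and 341.7 RPKM in DMSO-treated ones. Its log2 difference was 0.08 ± 0.08 (SE), and it was the single member that reached 1 RPKM in at least 2 of the 4 libraries; limma did not call it, beside 18.6% of 9479 genes tested (12.7% higher, 5.86% lower). Tnfsf9 was at 0.989 and 1.12 RPKM with GSK343, against 0.436 and 0.588 RPKM with DMSO, and Tnfrsf8 at 0.336 and 0.349 RPKM with GSK343, against 0.0968 and 0.171 RPKM with DMSO. Low values in these files lie on steps of whole reads, within a tolerance of 0.05 read, and the smallest read numbers that give Tnfsf9's values are 16 and 15 with GSK343, against 7 and 8 with DMSO. For Tnfrsf8 they are 7 and 6 with GSK343, against 2 and 3 with DMSO.

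Cd70 was at 1.26 and 0.765 RPKM with GSK343, against 0.546 and 0.750 RPKM with DMSO, and Tnf at 0.141 and 0.285 RPKM with GSK343, against 0.0947 and 0.112 RPKM with DMSO. The smallest read numbers behind Tnf are 3 and 5 with GSK343, against 2 and 2 with DMSO. Lta was listed at 0.0550 and 0 RPKM with GSK343 and at 0 in both DMSO libraries, and Tnfsf15 at 0 in all 4. With no filter on low values 6 members entered the fit and none was called by limma, while 2 were higher at an unadjusted p under 0.05. The rule that chose the members spans the inhibitor groups too, so nothing is read from the members' calls with GSK343. Sums of markers of other cells differed in both directions. The 11 myeloid markers summed to 19.3 and 20.7 RPKM with GSK343, against 5.89 and 6.91 RPKM with DMSO. The 10 T cell markers summed to 15.5 and 12.9 RPKM with GSK343, against 5.39 and 4.62 RPKM with DMSO. The 10 natural killer and dendritic cell markers summed to 15.1 and 14.9 RPKM with GSK343, against 18.6 and 20.2 RPKM with DMSO. Fcer1g had a mean of 14.2 RPKM with GSK343 against 2.34 RPKM with DMSO, and Lck 8.91 against 2.33 RPKM. Tyrobp went the other way, at 2.66 against 3.23 RPKM, and Cd247 at 1.52 against 1.78 RPKM. Cd3e was at 0 in all 4 libraries and Csf1r in both DMSO libraries. Their part in these values was not tested.

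Control pre-plasmablasts of the GC-normalized files and the DMSO-treated ones share a sort gate but not the Cre allele, the culture additive or the normalization. Tnfrsf8 was at 6.57 and 4.91 RPKM in the control pre-plasmablasts and at 0.0968 and 0.171 RPKM in the DMSO-treated ones. Ltb was at 91.1 and 128.2 RPKM in the control pre-plasmablasts and at 342.1 and 341.7 RPKM in the DMSO-treated ones. These values stand side by side and were not tested.

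Plasma cells taken from mice held Ltb at 20.3 and 20.5 RPKM, the highest member there per length. Tnfsf9 followed with 1.20 and 2.16 RPKM and Cd70 with 0.538 and 0.210 RPKM. Tnfrsf8 had 0.0716 and 0.0745 RPKM and Tnf 0.0350 and 0.0729 RPKM, and Lta 0.0410 and 0.0853 RPKM. The smallest read numbers behind the Tnf and Lta values are 1 and 2 in each. Tnfsf15 was at 0 and 0.0507 RPKM. The order of levels in plasma cells, with Ltb far ahead of the others, rests on files in which the gene names had to be moved back past 5 summary entries of the read counter. With the names moved, the plasma cell markers Igj and Sdc1 were at 22670 and 18481 RPKM and at 780 and 753 RPKM. With the names as deposited they would be at 6.22 and 3.42 RPKM and at 30.1 and 30.9 RPKM.

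Receptors of the member ligands were measured as well. Tnfrsf14, the receptor of lymphotoxin alpha and of Tnfsf14, rose to 26.4 and 27.9 RPKM in Blimp1-deficient pre-plasmablasts, against 15.9 and 15.1 RPKM in control pre-plasmablasts (log2 difference 0.77 ± 0.09, SE, adjusted p = 0.000849). Tnfrsf1b, the TNF receptor of activated lymphocytes, rose to 19.8 and 20.1 RPKM in Blimp1-deficient pre-plasmablasts, against 13.5 and 11.4 RPKM in control pre-plasmablasts (0.64 ± 0.13, adjusted p = 0.00952, lost without pre-plasmablast library 2 at an adjusted p of 0.0522). Tnfrsf1a, the widely expressed death domain receptor of TNF, fell to 0.0289 and 0 RPKM in Blimp1-deficient pre-plasmablasts, against 0.770 and 0.666 RPKM in control pre-plasmablasts (-0.76 ± 0.09, adjusted p = 0.00116). In the stages it was at 0 and 0.0275 RPKM in activated B cells, 0.770 and 0.666 RPKM in pre-plasmablasts and 1.10 and 1.24 RPKM in plasmablasts. Plasma cells had 9.21 and 8.03 RPKM of Tnfrsf1a. These 2 receptors of TNF thus had differences of opposite sign in the Blimp1-deficient cells. Tnfrsf1a passed the filter only through the plasmablast libraries, however, and was below 1 RPKM in every Blimp1-deficient and control pre-plasmablast library.

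The receptors Cd27 and Tnfrsf9 did not reach the level needed for a test in the GC-normalized files. Cd27 had 0.0791 and 0.439 RPKM in Blimp1-deficient pre-plasmablasts, against 0.243 and 0.521 RPKM in control pre-plasmablasts, and Tnfrsf9 0.252 and 0.125 RPKM in Blimp1-deficient pre-plasmablasts, against 1.25 and 0.620 RPKM in control pre-plasmablasts. In the inhibitor files both entered the fit only through the GSK343 libraries, in which alone they reached 1 RPKM, so a difference was built into the filter. Cd27 had 1.30 and 1.58 RPKM with GSK343, against 0.486 and 0 RPKM with DMSO (1.00 ± 0.18, SE, adjusted p = 0.00364), and Tnfrsf9 1.13 and 1.45 RPKM with GSK343, against 0.655 and 0.325 RPKM with DMSO (0.62 ± 0.16, adjusted p = 0.0178, up to 0.129 over the 7 alternatives). With no filter the limma adjusted p was 0.0345 for Cd27 and 0.0582 for Tnfrsf9. Ltbr and Tnfrsf25, the receptors of the lymphotoxin heterotrimer and of Tnfsf15, have entries in the inhibitor and plasma cell files. Ltbr was at 2.68 and 3.21 RPKM in plasma cells, and Tnfrsf25 at 0.141 and 0.147 RPKM.

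Among the other ligands, Tnfsf8, the ligand of Tnfrsf8 and neighbour of Tnfsf15, rose to 4.64 and 8.47 RPKM in Blimp1-deficient pre-plasmablasts, against 0.115 and 0.475 RPKM in control pre-plasmablasts (2.51 ± 0.31, SE, adjusted p = 0.00117). Activated B cells had 1.08 and 1.95 RPKM, and the Blimp1-deficient cells were higher than these too (1.56 ± 0.31, adjusted p = 0.0173), a call lost without Blimp1-deficient library 2 or activated B cell library 1, and with a pseudocount of 0.25. Tnfsf4, or OX40 ligand, had 1.49 and 1.90 RPKM in Blimp1-deficient pre-plasmablasts, against 0.371 and 0.383 RPKM in control pre-plasmablasts (0.96 ± 0.30, adjusted p = 0.042); the call is lost when any of these 4 libraries is left out and with median-of-ratios scaling. Tnfsf18, GITR ligand, was the third ligand tested and was not called. Of the 12 ligands on the list 5 are in these files and 3 were tested; 2 were called higher, beside 24.4% of all genes, and 1 with median-of-ratios scaling.

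The 5 lists of family and pathway genes were counted, 83 genes in all, of which 64 were tested in the GC-normalized files. Between Blimp1-deficient and control pre-plasmablasts 22 rose and 10 fell, beside 40.4% of all genes called. With the block it was 32 and 17, beside 65.2% of all genes, and with median-of-ratios scaling 19 and 14. The median of the 64 was 0.19, against 0.12 for all genes. Of 14 other TNF receptors tested, 8 rose and 3 fell (11 and 3 with the block), with a median of 0.73, and of these Tnfrsf23 passed the filter only through the Blimp1-deficient libraries. Cd40, the receptor of T cell help, rose to 37.2 and 30.1 RPKM in Blimp1-deficient pre-plasmablasts, against 16.8 and 12.1 RPKM in control pre-plasmablasts (1.17 ± 0.21, SE, adjusted p = 0.0059). Activated B cells had more Cd40, 62.7 and 57.0 RPKM. Against these the Blimp1-deficient cells were lower (-0.82 ± 0.21, limma adjusted p = 0.0444, a call lost in 5 of the 13 alternatives). Tnfrsf26 rose against control pre-plasmablasts by a log2 difference of 1.23 ± 0.24 (adjusted p = 0.00725). Tnfrsf17, or BCMA, the receptor by which plasma cells take survival signals, fell to 0.153 and 0 RPKM in Blimp1-deficient pre-plasmablasts, against 1.36 and 0.867 RPKM in control pre-plasmablasts (-0.97 ± 0.15, adjusted p = 0.00269). Like Tnfrsf12a, it passed the filter only through the plasmablast libraries. Tnfrsf12a fell by 0.55 ± 0.16 (adjusted p = 0.0357), a call lost in 8 of the 13 alternatives.

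The adaptors and ubiquitin enzymes had 7 higher and 3 lower of 26, beside 24.4% of all genes higher and 16.1% lower. With the block it was 11 and 5, beside 65.2% of all genes called, and with median-of-ratios scaling 6 and 4. The list median was 0.17, against 0.12 for all genes. Traf5, an adaptor of CD40 and CD30, rose to 15.0 and 11.96 RPKM in Blimp1-deficient pre-plasmablasts, against 2.16 and 1.51 RPKM in control pre-plasmablasts (2.35 ± 0.18, SE, adjusted p = 0.000183). Traf1, itself an NF-kB target, rose to 120.2 and 102.2 RPKM in Blimp1-deficient pre-plasmablasts, against 51.2 and 38.8 RPKM in control pre-plasmablasts (1.29 ± 0.17, adjusted p = 0.00132). Traf4 fell by 0.78 ± 0.09 (adjusted p = 0.00091) and Rnf31, a subunit of the linear ubiquitin ligase, by 0.41 ± 0.09 (adjusted p = 0.0103, up to 0.0608 over the alternatives).

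In the list on control of TNF mRNA and of shedding, 3 rose and 3 fell of 18, beside 24.4% of all genes higher and 16.1% lower. With the block it was 6 and 8, beside 65.2% of all genes called, and with median-of-ratios scaling 3 and 6. The list median was 0.04, against 0.12 for all genes. Zfp36, or tristetraprolin, which binds AU-rich elements of Tnf mRNA and speeds its decay, fell to 60.1 and 74.8 RPKM in Blimp1-deficient pre-plasmablasts, against 388.1 and 497.2 RPKM in control pre-plasmablasts (-2.69 ± 0.23, SE, adjusted p = 0.000268). In activated B cells it had 170.2 and 118.2 RPKM, also above the Blimp1-deficient cells (-1.07 ± 0.23, adjusted p = 0.022, lost without either Blimp1-deficient library or activated B cell library 1), and plasmablasts 448.7 and 568.4 RPKM. Rhbdf2, a cofactor of the protease that sheds TNF, rose by 0.84 ± 0.11 (adjusted p = 0.00168), and Litaf, named for a role in Tnf transcription, by 0.92 ± 0.22 (adjusted p = 0.0157). Map3k8, a kinase needed for TNF production, fell by 0.70 ± 0.19 (adjusted p = 0.0249); the calls of Litaf and Map3k8 are each lost in 3 of the 13 alternatives.

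**Figure D3:**
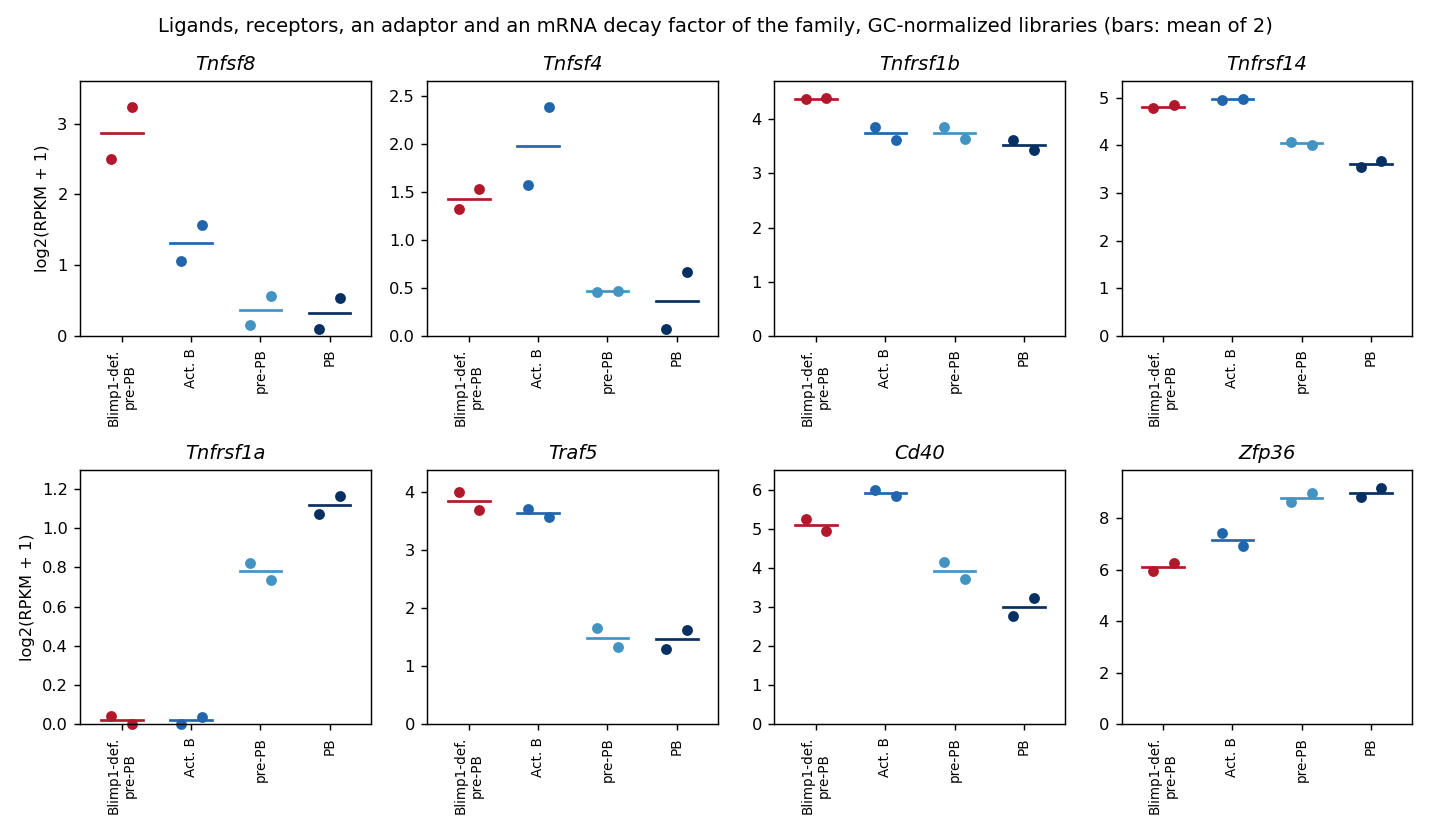
Levels of 8 family and pathway genes in the GC-normalized libraries on a log2(RPKM + 1) axis, points for single libraries and bars for the mean of 2. Zfp36 lies lowest in Blimp1-deficient pre-plasmablasts and Tnfsf8 highest.

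**Figure D4:**
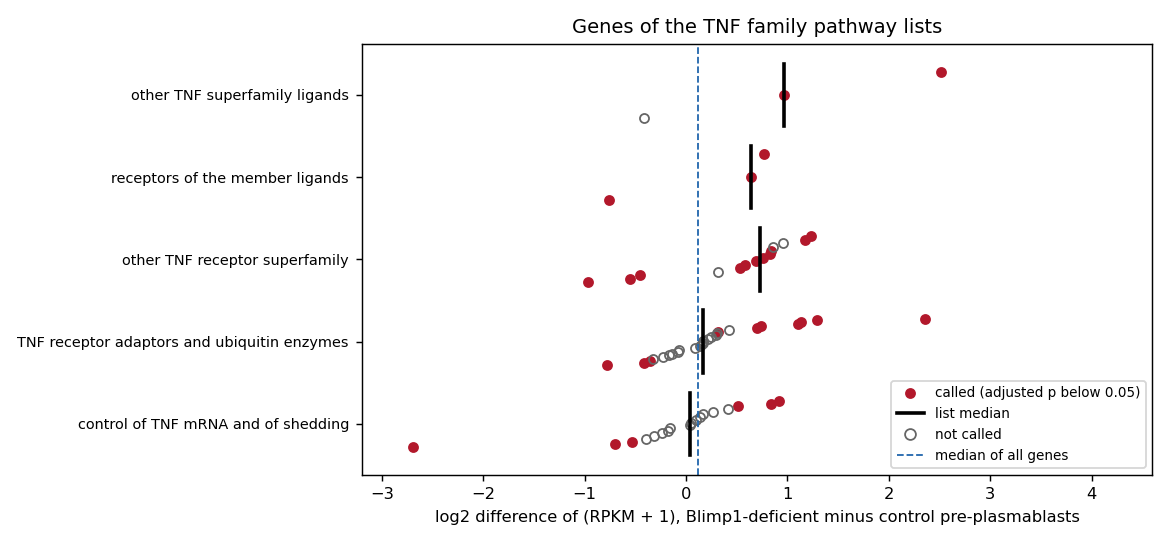
Log2 differences of RPKM + 1, Blimp1-deficient minus control pre-plasmablasts, for the tested genes of the 5 lists; filled points were called by limma at an adjusted p below 0.05, black bars are list medians and the dashed line the median of all genes at 0.12. Traf5 and Tnfsf8 lie farthest to the right and Zfp36 farthest to the left.

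Between Blimp1-deficient pre-plasmablasts and activated B cells 10 pathway genes rose and 10 fell of 64, beside 18% of all genes, and 14 and 21 with the block, beside 42.7%. Rhbdf1, a relative of Rhbdf2, rose by 1.41 ± 0.14 (SE, adjusted p = 0.00154) and Tnfrsf10b, a death receptor, by 1.12 ± 0.16 (adjusted p = 0.00482). Map3k14, the NF-kB inducing kinase, fell by 0.85 ± 0.14 (adjusted p = 0.00861), and Mapkapk2, a kinase that stabilizes Tnf mRNA, by 0.68 ± 0.08 (adjusted p = 0.00214).

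Along the stages, 11 pathway genes rose and 21 fell in pre-plasmablasts against activated B cells, beside 48.2% of all genes, and 12 rose and 24 fell in plasmablasts against activated B cells, beside 55.1%. With the block these were 14 and 32, beside 69.6%, and 19 and 37, beside 75.4%. With median-of-ratios scaling they were 12 and 17, and 16 and 18, so the excess of lower genes shrank, nearly to none in plasmablasts. Nothing is read from what was left of it. The share of higher among all called genes went to 51.4% from 41.9% in pre-plasmablasts, and to 51.3% from 38.6% in plasmablasts, against activated B cells. Cd40 fell by 1.99 ± 0.21 (SE, adjusted p = 0.000464) and Traf5 by 2.14 ± 0.18 (adjusted p = 0.000165) in pre-plasmablasts. Zfp36 rose by 1.62 ± 0.23 (adjusted p = 0.00146) and Tnfrsf1a by 0.76 ± 0.09 (adjusted p = 0.000815). Tnfrsf1a passed the filter only through the plasmablast libraries and was below 1 RPKM in the other stages. Between plasmablasts and pre-plasmablasts Tnfrsf17 was the single pathway gene called (2.45 ± 0.15, adjusted p = 0.00278, up to 0.0723 over the 13 alternatives), and 4 rose and 14 fell with the block, beside 20.3% of all genes; Tnfrsf17 passed the filter only through the plasmablast libraries.

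With GSK343 10 pathway genes rose and 4 fell of 56 tested, beside 18.6% of all genes (12.7% higher, 5.86% lower), and 8 rose and 6 fell with median-of-ratios scaling. Of the genes tested, Cd27, Tnfrsf9, Tnfrsf22 and Map3k14 passed the filter only through the GSK343 libraries, so the filter favoured higher values with GSK343 there. The median log2 difference of the 56 was 0.03, against 0.02 for all genes. Zfp36l1, a relative of Zfp36, rose to 57.1 and 66.0 RPKM with GSK343, against 25.3 and 29.9 RPKM with DMSO (1.13 ± 0.11, SE, adjusted p = 4.66e-05). Litaf rose by 0.88 ± 0.10 (adjusted p = 0.000153) and Tnfrsf17 by 0.89 ± 0.14 (adjusted p = 0.00105). Traf4 fell by 0.72 ± 0.09 (adjusted p = 0.000344) and Zfp36 by 0.46 ± 0.10 (adjusted p = 0.00718, up to 0.101 over the 7 alternatives).

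The genes most like each member across the 8 GC-normalized libraries were found by Pearson's r of log2(RPKM + 1), as a description; the libraries share 4 groups and the normalization. Tnf and Lta were alike at 0.995, and Tnfsf9 and Tnfsf15 at 0.994. Tnfsf15 and Cd70 were alike at 0.942, Tnf and Ltb at 0.567, and Tnf and Tnfrsf8 at -0.43. For Tnf the closest genes were Neurl2 at 0.997, Avil at 0.996 and Plaur, the urokinase receptor, at 0.995. For Lta they were Plxnb2, Ptger4 and Rnf157, each at 0.997. For Ltb they were Wnt10b at 0.98, the cytokine receptor Il21r at 0.959 and Vopp1 at 0.952. For Tnfsf15 they were Htra4, Ak1 and Hhat at 0.998, 0.997 and 0.996, and for Tnfsf9 Dhdh and Lnx2 at 0.996 and 0.995 with Tnfsf15 next. For Cd70 they were BC016495 at 0.993, and Bcs1l and Nlk at 0.990 each, and for Tnfrsf8 Plcd3 at 0.992 and Kif1b at 0.987.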

How the data were processed

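Polyadenylated RNA libraries were strand-specific and sequenced in 50-nucleotide reads on an Illumina HiSeq instrument, per the labels' protocols. The submitters' processing notes name the build mm9 and DESeq 1.8.3, TopHat 1.4.1, HTSeq 0.5.3 and SICER, without roles. The authors deposited RPKM values for 14 libraries, GC-normalized in 8, per the file names. The 24 chromatin samples of the series are not analysed here. Entries with a repeated name were left out. In the plasma cell files names were moved back past 5 read-counter summary entries.

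Tests used log2(RPKM + 1) and limma 3.58.1 in R 4.3.3, with a mean-variance trend, for genes that reached 1 RPKM in 2 or more libraries, in 1 fit over the 4 GC-normalized groups and 1 for the inhibitor files; p-values were two-sided and adjusted by Benjamini-Hochberg over all genes, called below 0.05. The procedure was also run on simulated data, with independent noise in each library and changes only in genes of higher level. That run says nothing about deviations shared between libraries or about genes near 1 RPKM. The members and lists were chosen with earlier results of these data known. Named genes were the members, all receptors of the member ligands and Tnfsf8. Per list and comparison, up to 2 called genes in each direction with the largest difference were added. Many of these added genes are not printed, among them the differences for plasmablasts against activated B cells, so those printed are a selection. Libraries of the same number series deviated together (correlations 0.666 to 0.781 between groups), so that series was also fitted as a block; the pairing comes from the library numbers in the titles. Alternatives were a pseudocount of 0.25, no filter, median-of-ratios scaling, 2 groups alone, the block and each library left out.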

Additional observations from a re-analysis of the deposited data

How the results depend on the processing

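All member differences kept their sign under a pseudocount of 0.25, median-of-ratios scaling and the block. The sign turned for Cd70 in pre-plasmablasts against activated B cells without activated B cell library 2 or pre-plasmablast library 1, and for Tnf in plasmablasts against pre-plasmablasts without plasmablast library 2. The depth of the GC-normalized files is unknown, and members below 1 RPKM in the inhibitor and plasma cell files rest on few reads. The causes of the changes below were not tested, apart from the pseudocount, which by construction widens differences of low genes.

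With a pseudocount of 0.25 the log2 difference of Blimp1-deficient against control pre-plasmablasts was 2.56 for Tnf, 2.74 for Lta, 3.00 for Tnfsf9, 4.94 for Tnfsf15 and 2.96 for Cd70. Against activated B cells it was -1.56 for Lta, 3.95 for Tnfsf15, 3.18 for Cd70 and 3.90 for Tnfrsf8. In pre-plasmablasts against activated B cells it was -4.36 for Tnf, -4.30 for Lta, -0.99 for Tnfsf15 and 2.53 for Tnfrsf8. In plasmablasts against pre-plasmablasts it was 0.58 for Lta, -0.42 for Tnfsf15 and -1.31 for Cd70. In plasmablasts against activated B cells it was -4.21 for Tnf, -3.72 for Lta, -1.41 for Tnfsf15, -1.08 for Cd70 and 2.04 for Tnfrsf8.

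With the replicate block the genes called numbered 6829 for Blimp1-deficient against control pre-plasmablasts, 4477 against activated B cells and 2128 for plasmablasts against pre-plasmablasts, where 4234, 1885 and 245 were called without it. Pathway genes called with the block numbered 49, 35 and 18 in these, and 56 for plasmablasts against activated B cells. With only the 2 groups compared in the fit, genes called numbered 1227 for Blimp1-deficient pre-plasmablasts against activated B cells and 1 for plasmablasts against pre-plasmablasts, and pathway genes 12 and 0. No paired analysis was possible for the inhibitor and plasma cell files because their libraries share no number. Median-of-ratios scaling took the median of all genes to -0.02 for pre-plasmablasts against activated B cells, from -0.12, and to -0.01 for plasmablasts against activated B cells, from -0.18, and the share of higher among called genes to 42.3% from 30.6% for plasmablasts against pre-plasmablasts, to 51.3% from 38.6% for plasmablasts against activated B cells and to 55.2% from 68.5% for GSK343 against DMSO. With the plasma cell names beside the values as deposited, mean RPKM would be 0 for Tnf, 20.4 for Lta, 0 for Ltb, 0.0176 for Tnfsf9, 1.68 for Tnfsf15, 8640 for Cd70 and 0.302 for Tnfrsf8.

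Leaving out each library in turn, genes called numbered 2996 to 3893 for Blimp1-deficient against control pre-plasmablasts, 763 to 1613 for Blimp1-deficient pre-plasmablasts against activated B cells, 3694 to 4844 for pre-plasmablasts against activated B cells, 23 to 154 for plasmablasts against pre-plasmablasts, 4555 to 5646 for plasmablasts against activated B cells, 876 to 1951 for GSK343 against DMSO pre-plasmablasts. Pathway genes called then numbered 5 to 17 for Blimp1-deficient pre-plasmablasts against activated B cells, 7 to 11 for GSK343 against DMSO pre-plasmablasts. For Blimp1-deficient against control pre-plasmablasts, the log2 difference ran over 2.05 to 3.07 for Cd70 without 1 library. For Blimp1-deficient pre-plasmablasts against activated B cells, the log2 difference ran over -1.95 to -1.39 for Tnf, 2.08 to 2.66 for Tnfsf9, 3.23 to 3.54 for Tnfsf15, 2.91 to 3.42 for Tnfrsf8 without 1 library. For pre-plasmablasts against activated B cells, the log2 difference ran over -3.82 to -3.27 for Tnf, -0.70 to -0.12 for Tnfsf9, -0.72 to -0.41 for Tnfsf15, -0.32 to 0.70 for Cd70, 1.64 to 2.15 for Tnfrsf8 without 1 library. For plasmablasts against pre-plasmablasts, the log2 difference ran over 0.070 to 0.50 for Lta, -3.38 to -2.64 for Ltb, -1.39 to -0.37 for Cd70 without 1 library. For plasmablasts against activated B cells, the log2 difference ran over -3.73 to -3.18 for Tnf, -3.08 to -2.65 for Lta, -3.90 to -3.15 for Ltb, -1.07 to -0.50 for Tnfsf9, -0.92 to -0.60 for Tnfsf15, 1.21 to 1.72 for Tnfrsf8 without 1 library.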
